A study of Mus musculus with 10 samples.

Results

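Toll-like receptors are membrane proteins with which innate immune cells sense microbial products and, in injured tissue, molecules released by the body's own cells. The members described here were the 10 genes Tlr1, Tlr2, Tlr3, Tlr4, Tlr5, Tlr6, Tlr7, Tlr8, Tlr9 and Tlr13, matched by symbol in the deposited table of 19782 genes. All 10 were in the table and all 10 were among the 12505 genes with enough counts to test. RNA came from microglia, which are the brain's own macrophages, isolated from mouse hippocampus by their CD45low CD11b+ surface and made into Smart-Seq libraries, which amplify cDNA from little RNA. There were 4 wild-type (WT) libraries, from mice on normal diet. The control group of 3 libraries came from 5xFAD mice on normal diet, a line with mutated human amyloid precursor protein and presenilin transgenes under a neuronal promoter, in which amyloid plaques form. The repopulated group of 3 libraries came from 5xFAD mice fed PLX3397, an inhibitor of the CSF1 receptor that microglia need to survive, at 290 mg/kg of chow for 1 month from 4 months of age. These mice then had 1 month of normal diet, in which microglia returned. The labels give no age for the wild-type and control mice, and repopulated microglia of wild-type mice were not analysed here.

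Surface receptors meet their ligands at the cell membrane. Tlr2 pairs with Tlr1 or Tlr6 to bind bacterial lipopeptides, Tlr4 senses lipopolysaccharide with its partner MD-2, and Tlr5 senses bacterial flagellin. Tlr3, Tlr7, Tlr8, Tlr9 and Tlr13 sense nucleic acids inside endosomes, where they depend on the chaperone Unc93b1 and on proteases that cut their ectodomains. Ligand binding recruits the adaptor Myd88 (Tlr3 uses Ticam1, also called TRIF, and Tlr4 uses both), and the signal reaches NF-kappaB and interferon regulatory factors. In microglia, Tlr2 and Tlr4 are known among the receptors that respond to aggregated amyloid.

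Library totals ran from 18501136 to 23286814 estimated counts. The 10 microglia markers, such as P2ry12, Tmem119 and Cx3cr1, summed to between 43120 and 60910 library-scaled counts (CPM) in every library, and 5 of the 10 fell in control microglia against wild type. The 2 T and NK cell markers in the table summed to at most 0.151 CPM, and the 10 markers of neutrophils and monocytes, cells that also carry Toll-like receptors, to between 32.7 and 333 CPM. Wild-type 3 stood apart from the other wild-type libraries on the second principal component (-67.0, against 20.9 to 52.9) and had the highest summed astrocyte, neuron and erythrocyte markers. Transcripts of 4 Y-linked genes were nearly missing from wild-type 2, control 1 and control 3 (5.12 to 16.0 CPM without TMM scaling, against 342 to 484 elsewhere), so that sex, as far as these transcripts show it, was unevenly spread over the groups. Without those 3 libraries the control group is control 2 alone, assumed to vary like the other groups. Nothing in the labels says that each library of a group is from its own animal, so the p-values reflect a spread between libraries that may be technical.

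The promoter windows of the 4 receptors whose control and wild-type libraries did not overlap are shown first. The same lack of overlap was seen in 26.7% of all genes tested, and Tlr6 is among the 4 though it did not pass the test. Each window is the 250 bases before a transcription start listed in RefSeq (GRCm38.p6), written 5′ to 3′ on the gene's strand. Such an entry was there for 8 of the 10 genes (not for Tlr4 and Tlr7). Tlr1 and Tlr6 have more than 1 listed start, and the window of the start listed first is printed. For Tlr6 the other listed start lies upstream of the printed one. Capitals mark matches to the motifs searched on both strands. The windows lie at chr5:64933559-64933808 (minus strand) for Tlr1, chr3:83841609-83841858 (minus strand) for Tlr2, chr1:182954538-182954787 (plus strand) for Tlr5 and chr5:64959167-64959416 (minus strand) for Tlr6.
Tlr1: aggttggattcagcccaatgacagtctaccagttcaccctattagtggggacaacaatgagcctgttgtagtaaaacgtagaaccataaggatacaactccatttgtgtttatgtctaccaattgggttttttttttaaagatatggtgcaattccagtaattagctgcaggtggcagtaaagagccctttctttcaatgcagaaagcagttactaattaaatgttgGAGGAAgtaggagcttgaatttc
Tlr2: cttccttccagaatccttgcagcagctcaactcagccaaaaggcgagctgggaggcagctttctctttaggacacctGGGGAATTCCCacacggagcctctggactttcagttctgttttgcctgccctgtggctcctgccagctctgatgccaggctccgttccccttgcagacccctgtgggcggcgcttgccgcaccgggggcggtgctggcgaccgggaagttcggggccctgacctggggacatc
Tlr5: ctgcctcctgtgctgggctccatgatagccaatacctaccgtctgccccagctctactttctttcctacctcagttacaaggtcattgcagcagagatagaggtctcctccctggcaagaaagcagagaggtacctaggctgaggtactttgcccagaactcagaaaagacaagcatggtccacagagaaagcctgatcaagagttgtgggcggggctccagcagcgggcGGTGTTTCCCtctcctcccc
Tlr6: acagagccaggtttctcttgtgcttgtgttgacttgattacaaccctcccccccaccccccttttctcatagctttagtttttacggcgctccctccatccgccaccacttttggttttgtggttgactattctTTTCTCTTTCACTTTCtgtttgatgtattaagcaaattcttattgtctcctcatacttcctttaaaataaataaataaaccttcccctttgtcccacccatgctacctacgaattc
In Tlr1 the capitals mark GAGGAA, the core bound by PU.1 and other ETS factors, starting 23 bases before the start. In Tlr2 they mark overlapping matches to the NF-kappaB motif (GGG, any 5 bases, CC), and in Tlr5 a match to the same motif on the other strand 20 bases before the start. In Tlr6 they mark a pair of overlapping matches to the interferon-stimulated response motif (GAAA, any 2 bases, GAAA) on the other strand. Of 32851 promoter windows of this length, 23.25% held GAGGAA, 45.8% the NF-kappaB motif and 2.98% the interferon-stimulated response motif, so that matches to the first pair are common. TGANTCA (AP-1, in 6.75% of windows) was found in Tlr9 only, and TGACGTCA (CRE, in 1.55%) in none of the 8 genes. GAGGAA was also in the windows of Tlr8, Tlr9 and Tlr13, and the NF-kappaB motif in those of Tlr3 and of the other Tlr6 start. A match describes the letters and does not show that a factor binds.

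Levels between genes were compared as deposited TPM, which are scaled for transcript length and library size. Tlr7 and Tlr13 were the most abundant receptor transcripts in every group, followed by Tlr2 and Tlr1. Tlr7, the sensor of single-stranded RNA, had 177 ± 12.5 TPM in wild type (SD, n = 4), 153 ± 11.3 in control (SD, n = 3) and 124 ± 11.3 in repopulated libraries (SD, n = 3). Tlr13, which senses bacterial ribosomal RNA, had 176 ± 16.8, 130.5 ± 15.2 and 124 ± 27.7 TPM, and its libraries overlapped those of Tlr7 in each group. Within a library the ratio of Tlr7 to Tlr13 was 0.877 to 1.17 in wild type and 0.879 to 1.19 in repopulated libraries. In control it was 1.14 to 1.24, so Tlr7 was above Tlr13 in every control library. The groups overlapped, since wild-type 2 (1.17) and repopulated 1 (1.19) lay within the control range. Whether the ratio is above or below 1 also rests on the lengths behind the deposited TPM, which the sources used here do not give. Tlr2 had 82.9 ± 2.12, 99.0 ± 18.6 and 94.8 ± 11.6 TPM. Within each of the 10 libraries Tlr2 lay below Tlr13. Between libraries, the highest Tlr2 value passed the lowest Tlr13 value in each of the 5xFAD groups and not in wild type. Tlr1 followed Tlr2, without overlap in any group, at 60.4 ± 5.43, 66.4 ± 0.662 and 57.1 ± 8.60 TPM.

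Below these came Tlr6, Tlr3 and Tlr4. In wild type Tlr6 (51.9 ± 4.41 TPM) was above Tlr3 (46.5 ± 4.79 TPM), with overlapping libraries. In control the order was the other way, with Tlr3 at 37.0 ± 3.85 and Tlr6 at 30.0 ± 2.87 TPM and no overlap, and in repopulated libraries the means of Tlr3 and Tlr6 lay close together (34.0 ± 3.05 and 33.8 ± 9.87 TPM). Tlr4 was the seventh in each group, at 28.9 ± 5.66, 18.0 ± 2.31 and 19.4 ± 1.67 TPM, below every library of Tlr3 and Tlr6 of its group. That rank rests on the length behind the deposited TPM, which the sources used here do not give. With CPM divided by the length of the longest listed GENCODE transcript, a scale chosen after seeing the data, Tlr4 came to rank 4 in wild type (30.7 ± 4.23 CPM per kb, overlapping Tlr1 and Tlr6) and rank 5 in each of the 5xFAD groups, while Tlr7, Tlr13 and Tlr2 kept ranks 1 to 3. On that scale Tlr3 stayed above Tlr6 by mean in control, but their libraries overlapped (22.7 to 26.3 and 18.5 to 23.1 CPM per kb). Tlr6 ranked above Tlr3 in repopulated libraries, and Tlr8 ranked above Tlr5 in control. So these orders rest on the lengths as well. The last 3, Tlr5, Tlr8 and Tlr9, were scarce in every group. Tlr5 had 4.32 ± 1.99, 0.810 ± 0.154 and 1.94 ± 0.620 TPM, Tlr8 had 0.943 ± 0.387, 0.643 ± 0.426 and 0.517 ± 0.214, and Tlr9, the sensor of unmethylated CpG DNA, had 0.645 ± 0.340, 0.380 ± 0.171 and 0.373 ± 0.145. Tlr8 and Tlr9 overlapped in each group, and in control Tlr5 overlapped Tlr8 as well. Tlr9 rested on 8 to 36 estimated counts per library and Tlr8 on 15 to 67, so only large changes of these genes could be seen at this depth.

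**Figure D1:**
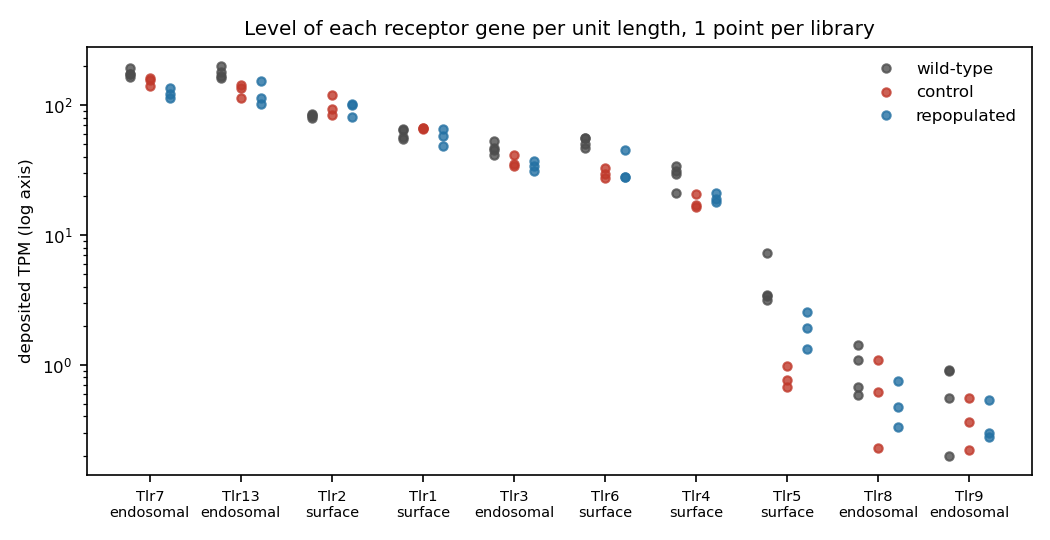
Deposited TPM of each receptor gene on a log axis, 1 point per library, for wild-type, control and repopulated microglia. Tlr7 and Tlr13 lie at 102 to 199 TPM in all 10 libraries, and Tlr8 and Tlr9 at 1.42 or lower.

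The first comparison asked how the receptors differed between 5xFAD microglia on normal diet and wild-type microglia. Tlr5 was 4.23-fold lower in control, Tlr2 was 1.51-fold higher and Tlr1 was 1.39-fold higher, and these 3 of the 10 genes passed the test at an adjusted p of 0.05. Over all genes 18.1% passed, so these 3 calls do not set the receptors apart. All 3 are surface receptors, and none of the 5 endosomal receptors passed, of which Tlr8 and Tlr9 had few counts. The difference between the classes was not tested. Levels of a single gene are given from here on as CPM scaled with TMM factors, the scale of the test. In bulk RNA, fewer cells of a type and less RNA per cell cannot be told apart.

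Tlr5 had 11.2, 6.13, 6.03 and 5.71 CPM in wild-type libraries 1 to 4 and 1.48, 2.02 and 1.65 CPM in control libraries 1 to 3. Every control library lay below every wild-type library, and wild-type 1 was far above the rest of its group. The log2 fold change was -2.08 (SE 0.38, edgeR adjusted p = 0.00152), and the control values rested on 30 to 40 estimated counts per library. Tlr2, the shared partner of the lipopeptide-binding pairs, had 115.7, 124.5, 134.4 and 122.1 CPM in wild type and 180.6, 153.5 and 228.9 CPM in control. All control libraries were higher, with control 3 the highest and control 2, the control library with Y-linked transcripts, the lowest. Its log2 fold change was 0.60 (SE 0.15, edgeR adjusted p = 0.0122). Tlr1, the partner of Tlr2 for triacylated lipopeptides, had 86.8, 87.0, 85.4 and 93.4 CPM in wild type and 126.5, 116.8 and 124.0 CPM in control. The spread within each group was small, and the groups did not overlap (log2 fold change 0.47, SE 0.13, edgeR adjusted p = 0.0214).

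Tlr6, the partner of Tlr2 for diacylated lipopeptides, differed from Tlr1 in sign. It had 105.8, 94.4, 123.7 and 100.1 CPM in wild type and 85.0, 68.1 and 75.7 CPM in control. The groups did not overlap, but the difference missed the threshold (log2 fold change -0.47, SE 0.17, edgeR adjusted p = 0.0748). It passed without repopulated 3, which leaves the Tlr6 libraries compared unchanged but shares in the estimate of the spread (edgeR adjusted p = 0.0322), and with GC and length offsets (0.0288). Whether Tlr6 differed from Tlr1 was not tested. Tlr1 and Tlr6 are close paralogs that lie beside each other on chromosome 5 (64924680 to 64933600 and 64953092 to 64970942), and their deposited counts were not whole numbers in any of the 10 libraries, which is what reads divided between genes give, so the split between this pair is uncertain. The Tlr7 count was not whole in 9 libraries. Tlr4 had 135.8, 133.8, 99.6 and 132.2 CPM in wild type and 92.5, 111.0 and 95.5 CPM in control. Wild-type 3 fell among the control libraries, and the other wild-type libraries lay above all of them. The log2 fold change was -0.33 (SE 0.14, edgeR adjusted p = 0.127). It passed without wild-type 3 (log2 fold change -0.43, edgeR adjusted p = 0.0306).

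Among the endosomal receptors the control and wild-type libraries overlapped for each gene. Tlr7 had 386.6, 475.6, 457.0 and 413.0 CPM in wild type and 475.6, 415.1 and 486.4 CPM in control (log2 fold change 0.08, SE 0.13, edgeR adjusted p = 0.695). Tlr13 had 338 to 420 CPM in wild type and 300.2 to 394 in control (log2 fold change -0.09, SE 0.17). Tlr3, the sensor of double-stranded RNA, had 107 ± 10.8 CPM in wild type and 107 ± 8.10 in control. None of these 3 sets of libraries was displaced by more than its spread. Tlr8 (2.16 ± 0.738 and 2.03 ± 1.27 CPM) and Tlr9 (1.16 ± 0.568 and 0.885 ± 0.412 CPM) were scarce, and their libraries overlapped widely. Mouse Tlr8 is a relative of Tlr7. Tlr7, Tlr8 and Tlr13 lie on the X chromosome. In a fit that carried the Y-linked status of each library none of the 10 receptors passed the test for that status. The log2 difference was -0.20 for Tlr7 (SE 0.14, edgeR adjusted p = 1), -1.01 for Tlr8 (SE 0.67) and -0.15 for Tlr13 (SE 0.19). The status is partly confounded with group, since only wild-type 2, control 1 and control 3 lack the transcripts, so this fit could miss such differences.

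**Figure D2:**
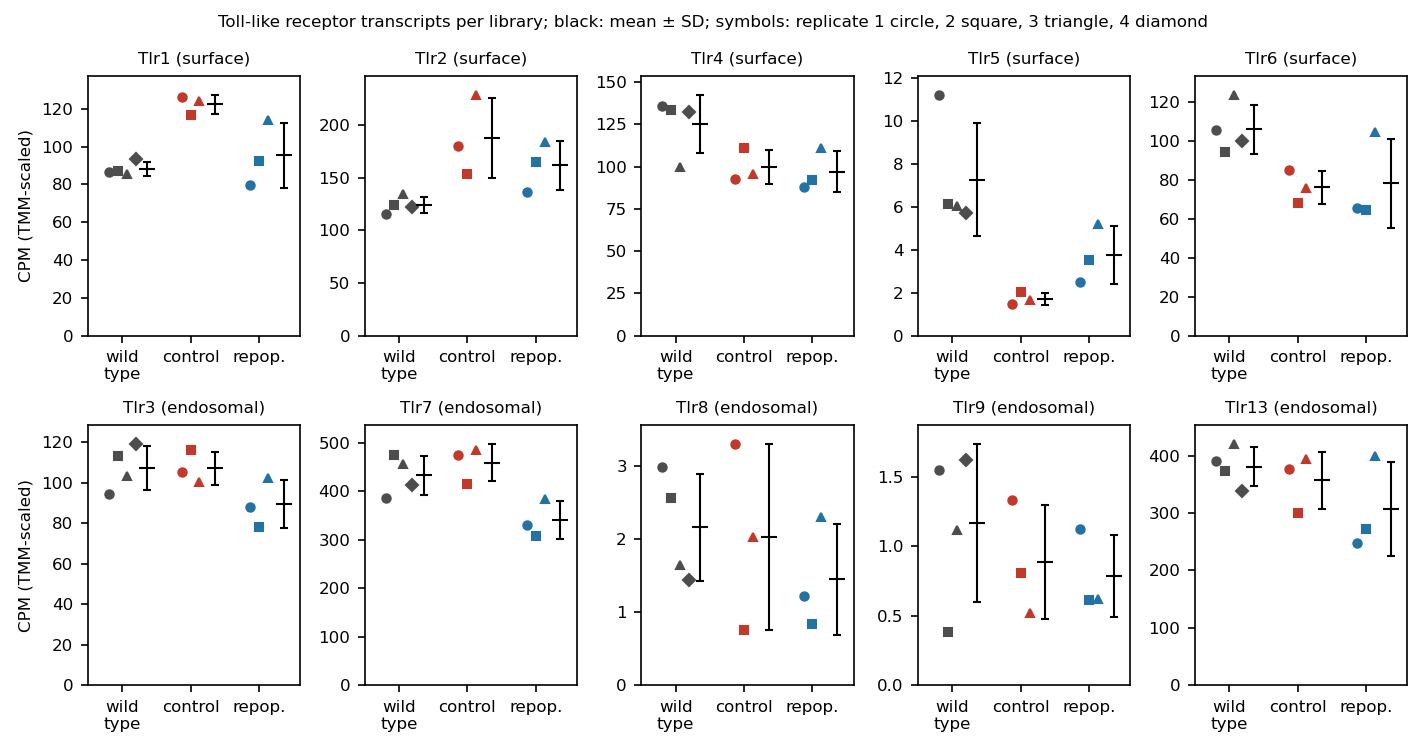
TMM-scaled CPM of each receptor in each library, with the group mean and SD in black and the surface receptors in the top row. Tlr1, Tlr2, Tlr5 and Tlr6 have control libraries that do not overlap the wild-type libraries, and for the 5 endosomal receptors the control and wild-type groups overlap.

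In all, 2 receptors rose and 1 fell against a background of 18.1% of all genes called (10.1% higher and 8.04% lower). With 10 members, 3 calls do not set the receptors apart from that background. Control and wild-type libraries did not overlap for 4 of the 10 receptors, against 26.7% of all genes tested. The 5 surface receptors all had an unadjusted p under 0.05, as had 31.8% of all genes, and the 5 endosomal receptors all had a larger one, and the difference between the classes was not tested. The median log2 fold change was -0.33 over the surface receptors, -0.09 over the endosomal receptors and -0.06 over all genes. The Tlr1 call was lost without control 1 (edgeR adjusted p = 0.0860), without control 3 (0.0587), with GC and length offsets (0.0546) and with a term for Y-linked status (0.0621), within a range of 0.00319 to 0.2695 over 23 alternatives. The Tlr2 call was lost without control 3 (0.0709) and with the Y-linked term (0.0649), within 0.00111 to 0.367, and the Tlr5 call was lost under 1 alternative, with control 2 as the only control library (log2 fold change -1.91, edgeR adjusted p = 0.0955).

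**Figure D3:**
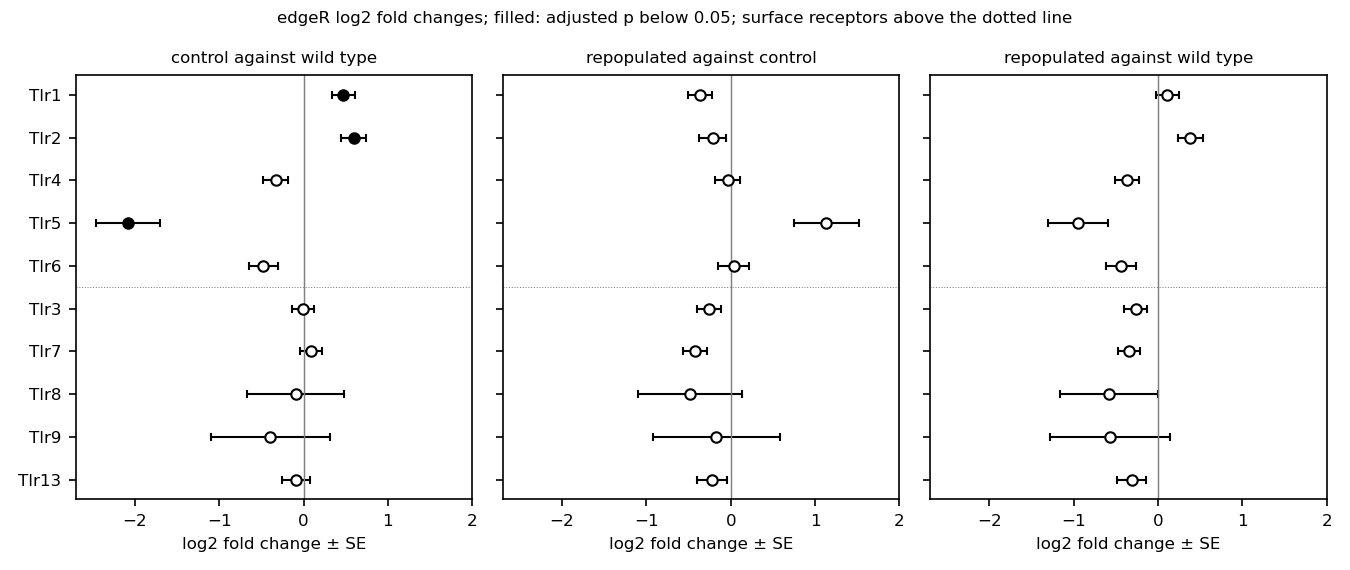
Log2 fold change and SE of each receptor in the 3 comparisons, with filled points for an edgeR adjusted p under 0.05 and the surface receptors above the dotted line. The filled points are Tlr1, Tlr2 and Tlr5 in control against wild type, at 0.47, 0.60 and -2.08.

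The second comparison asked whether depletion and return of the microglia changed the receptors within 5xFAD mice. No receptor passed the test, against a background of 0.568% of all genes, and 3 of the 10 had an unadjusted p under 0.05 (Tlr1, Tlr5 and Tlr7), against 18.5% of all genes. DESeq2 called 1 of them, Tlr7, beside 698 of all genes, and limma-voom none, beside 59 higher and 46 lower of all genes. Repopulated Tlr7 was at 331.6, 308.7 and 385.0 CPM in libraries 1 to 3, all below the 3 control libraries. The log2 fold change was -0.43 (SE 0.14, edgeR adjusted p = 0.140), and DESeq2 gave -0.45 with an adjusted p of 0.0269. Over its alternatives the adjusted p ran from 0.0269 to 0.582.

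Tlr5 had 2.52, 3.55 and 5.22 CPM in repopulated libraries. These values lay above all control and below all wild-type libraries, and the difference from control did not pass (log2 fold change 1.13, SE 0.39, edgeR adjusted p = 0.149). Tlr1 had 79.5, 92.5 and 114.0 CPM. All 3 were below the control libraries, 1 was below the wild-type range, 1 was within it and 1 was above it (log2 fold change against control -0.36, SE 0.14, edgeR adjusted p = 0.195). Tlr2 had 136.8, 164.7 and 183.6 CPM and overlapped control (log2 fold change -0.21, SE 0.16). Tlr6 (65.4, 64.5 and 104.7 CPM) and Tlr4 (88.2, 92.2 and 111.0 CPM) differed little from control on average, and in both genes repopulated 3 was the highest. Tlr3 (88.0, 78.3 and 102.2 CPM) and Tlr13 (248.2, 271.3 and 399.9 CPM) overlapped the control libraries, again with repopulated 3 the highest. Repopulated and control libraries did not overlap for Tlr1, Tlr5 and Tlr7, 3 of 10 receptors against 30.7% of all genes. The median log2 fold change of the 10 was -0.22, with 8 lower and 2 higher, and that of all genes was 0.00.

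In repopulated against wild-type microglia no receptor passed the test either, against 4.18% of all genes, while 5 of the 10 had an unadjusted p under 0.05, against 15.1% of all genes. DESeq2 and limma-voom called 0 as well, while over all genes DESeq2 called 573 higher and 207 lower and limma-voom 437 and 97. The 5 were Tlr5 (log2 fold change -0.95, SE 0.35, edgeR adjusted p = 0.190), Tlr2 (0.38, SE 0.15, edgeR adjusted p = 0.214), Tlr7 (-0.34, SE 0.13, edgeR adjusted p = 0.208), Tlr4 (-0.37, SE 0.14, edgeR adjusted p = 0.218) and Tlr6 (-0.44, SE 0.17, edgeR adjusted p = 0.229). Repopulated and wild-type libraries did not overlap for Tlr2, Tlr5 and Tlr7, against 16.0% of all genes. Of these, Tlr2 was higher, and Tlr5 and Tlr7 were lower. Without repopulated 3, Tlr6 passed (log2 fold change -0.70, edgeR adjusted p = 0.0321). The median over the 10 receptors was -0.36 and that of all genes was -0.02. The 3 comparisons share their groups in pairs, so that their values are not independent of each other. The sum of neutrophil and monocyte markers was 32.7, 333 and 36.2 CPM in controls 1 to 3, 50.1 to 257 in wild type and 78.4 to 171 in repopulated libraries. The 6 dendritic cell markers summed to 14.0 to 17.2 CPM in repopulated libraries, below all control (29.8 to 72.6 CPM) and wild-type libraries (19.3 to 44.8 CPM). Much of that difference lay in 1 of them, Cd209a, with means of 18.8 CPM in wild type, 37.1 in control and 4.18 in repopulated libraries. Cd209a was lower in repopulated microglia than in control (log2 fold change -3.15, edgeR adjusted p = 0.0351) and than in wild type (-2.16, 0.0374). The other 5 were not called in either comparison. Against control, Klrd1 and Zbtb46 had higher means in repopulated libraries, Clec9a and Xcr1 lower ones, and Flt3 0.13 CPM in both. Against wild type, Clec9a and Klrd1 had higher means, and Flt3, Xcr1 and Zbtb46 lower ones. The 7 border macrophage markers summed to 56.8 to 98.0 CPM in repopulated, 70.8 to 128 in control and 69.6 to 118 in wild-type libraries, with overlap and with no marker called. The part of these cells in the receptor levels was not tested.

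Ratios between receptors within a library do not depend on the scaling of that library. The surface receptors held 36.2 ± 1.29% of the summed TPM of the 10 receptors in wild type (SD, n = 4, 34.6 to 37.4%), 40.0 ± 0.772% in control (SD, n = 3, 39.2 to 40.7%) and 42.3 ± 1.91% in repopulated libraries (SD, n = 3, 40.6 to 44.3%). Every 5xFAD library had a larger surface share than every wild-type library. On CPM per listed length this also held, narrowly, with at most 37.9% in wild type and at least 38.1% in control. The ratio of Tlr1 to Tlr6 TPM was 1.17 ± 0.134 in wild type, 2.23 ± 0.196 in control and 1.74 ± 0.303 in repopulated libraries. Wild type (0.984 to 1.30) overlapped neither of the 5xFAD groups, and the highest repopulated library (2.05) just passed the lowest control library (2.03). The ratio of Tlr2 to Tlr4 was 2.97 ± 0.662, 5.59 ± 1.49 and 4.88 ± 0.348, with wild-type 3 the highest of its group at 3.95. The summed TPM of the 10 receptors was 630.3 ± 27.0 in wild type, 536 ± 39.2 in control and 490 ± 68.2 in repopulated libraries. TPM carries no TMM scaling, so that sum and the CPM need not move together, and Tlr7 is an example, with a higher mean TPM and a lower mean CPM in wild type than in control. These shares and ratios are descriptions, with no test.

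**Figure D4:**
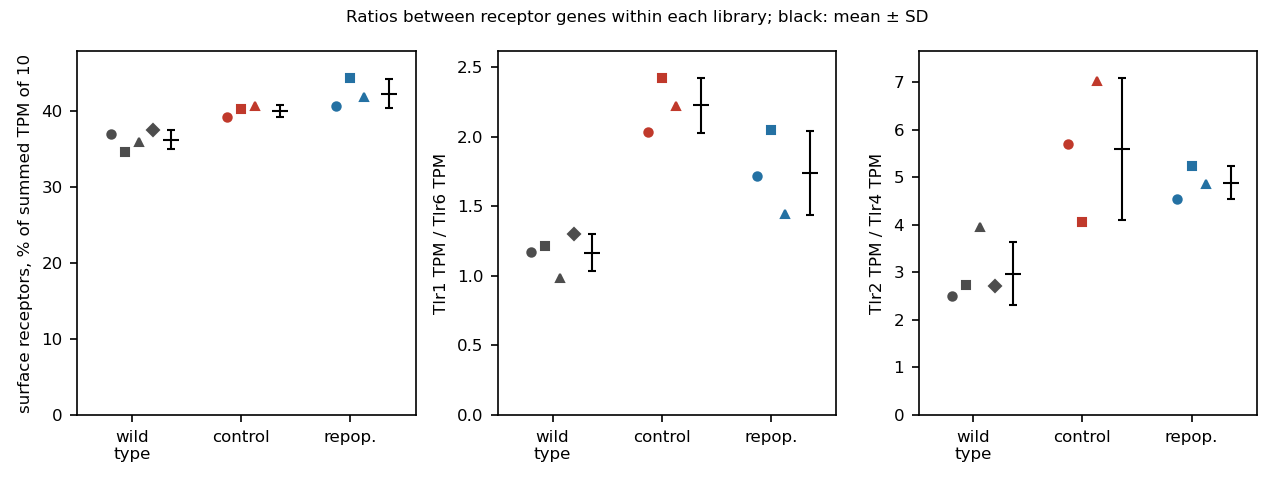
Share of the surface receptors in the summed TPM of the 10 receptors, and the Tlr1 to Tlr6 and Tlr2 to Tlr4 ratios, per library with group mean and SD. The surface share was 34.6 to 37.4% in wild-type libraries and at least 39.2% in the 6 libraries of 5xFAD mice.

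Other genes of the pathway were read from the same fits. Of 11 tested co-receptors and chaperones, 4 rose and 2 fell in control against wild type (all genes: 10.1% higher and 8.04% lower), with a list median of 0.29 (all genes -0.06). Unc93b1, the chaperone that carries the endosomal receptors out of the endoplasmic reticulum, had 517 ± 127 CPM in wild type and 251 ± 71.7 in control (SD, n = 4 and 3) and fell 2.06-fold (log2 fold change -1.04, edgeR adjusted p = 0.00361). In repopulated libraries it had 434 ± 42.3 CPM, which did not pass against control (edgeR adjusted p = 0.102). Hsp90b1, the chaperone gp96 that folds most Toll-like receptors, rose 1.64-fold to 2195 ± 82.6 CPM (edgeR adjusted p = 0.00375), and Ly86, the MD-1 partner of the Toll-like protein Cd180, rose 1.73-fold to 2253 ± 139 CPM (edgeR adjusted p = 0.00126). Rab7b, a late endosomal GTPase linked to Tlr4 and Tlr9 turnover, had 0.579 to 3.01 CPM in wild type and 44.5 to 92.2 in control (log2 fold change 5.70, SE 0.43, edgeR adjusted p = 2.89e-06). Cnpy4 rose and Cnpy3, a folding factor of the receptors, fell, and both were named after their values were seen. The Tlr4 partners Cd14 (698 ± 105 and 706 ± 174 CPM) and Ly96 (39.6 ± 6.40 and 32.4 ± 3.75 CPM) did not pass, nor did Cd180 (29.2 ± 13.2 and 57.6 ± 2.91 CPM).

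Among 12 genes of endosomal processing, 5 rose and 2 fell in control, against 10.1% of all genes higher and 8.04% lower. Ctsl and Ctsb encode cathepsins, lysosomal proteases of the kind that cut the endosomal receptors. Ctsl had 857 ± 115 CPM in wild type and 2573 ± 92.4 in control and rose 3.001-fold (SE of the log2 fold change 0.14, edgeR adjusted p = 1.68e-06). Ctsb rose 2.46-fold, and its control libraries spread widely (9755 ± 2819 CPM, against 3959 ± 531 in wild type). Slc15a3, an endolysosomal peptide transporter, rose 2.13-fold, and Pld3, an exonuclease that degrades ligands of Tlr7 and Tlr9, 1.90-fold. Without control 1 (edgeR adjusted p = 0.0615) or control 3 (0.0760) Pld3 was not called. The other riser was the cathepsin gene Ctss, and those that fell were Pld4, a nuclease related to Pld3, and the protease gene Lgmn. These 3 were named after their values were seen. The list median was 0.24 on the log2 scale.

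Of 22 adaptors and kinases 0 rose and 3 fell in control, and the other 19 did not pass. Of all genes 10.1% were higher and 8.04% lower, or 18.1% in either direction. Myd88, the adaptor of all these receptors but Tlr3, had 53.9 ± 6.02 CPM in wild type and 28.0 ± 6.29 in control and fell 1.92-fold (log2 fold change -0.94, edgeR adjusted p = 0.00104). In repopulated libraries Myd88 was at 44.8 ± 0.558 CPM, which did not pass against control (log2 fold change 0.67, edgeR adjusted p = 0.0786). Tirap, which bridges Tlr2 and Tlr4 to Myd88, fell 1.498-fold, and Tab2, a subunit of the TAK1 complex, 1.43-fold. Ticam1 had 7.63 ± 2.68 and 8.36 ± 4.36 CPM in wild type and control. Without control 1, Tirap (edgeR adjusted p = 0.112) and Tab2 (0.0917) were not called, and Tirap was not called without control 3 either (0.0548).

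The list drawn up as negative regulators had 1 riser and 4 that fell among 16 tested, beside 10.1% and 8.04% of all genes. Whether each member, Peli1 among them, limits signalling in microglia was not tested. Atf3, a transcriptional repressor of Toll-like receptor responses, rose 2.99-fold, with 13.1 ± 1.34 CPM in wild type and 39.0 ± 2.39 in control (edgeR adjusted p = 4.2e-06). The ubiquitin ligase gene Peli1 (log2 fold change -0.53), the NF-kappaB inhibitor genes Nfkbia (-0.61) and Nfkbie (-0.68) and the phosphatase gene Inpp5d (-0.49), the last named after its values were seen, fell. Nfkbia was not called without control 1 (edgeR adjusted p = 0.111) or control 3 (0.0901), and Nfkbie kept its call in 11 of 23 alternatives. Irak3, which blocks signalling at the kinase step, had 5.71 ± 2.83 and 10.02 ± 2.72 CPM, and Tnfaip3, the A20 deubiquitinase, 46.8 ± 3.06 and 44.6 ± 6.43 CPM. Neither of them passed. Of 13 transcription factors 1 rose and 3 fell, beside the same 10.1% and 8.04%. Nfkbiz, an atypical IkappaB that is itself induced by the receptors, rose 2.08-fold (edgeR adjusted p = 0.00313). The NF-kappaB subunit genes Rel (log2 fold change -0.58) and Nfkb1 (-0.46) fell and so did Irf1 (-0.46), which kept its call in 8 of 23 alternatives. Rel (edgeR adjusted p = 0.0511) and Nfkb1 (0.0758) were not called without control 1.

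Of 22 listed genes that receptor signalling is known to induce, 14 had enough counts to test, and 2 of them rose in control, a share near the 10.1% of all genes that were higher. Ccl3, a chemokine gene, had 19.4 ± 3.57 CPM in wild type and 314.0 ± 3.69 in control and rose 16.2-fold (SE of the log2 fold change 0.21, edgeR adjusted p = 1.42e-08). Ccl4, its neighbour in the same chemokine family, rose 6.91-fold, with 24.3 ± 5.96 and 168 ± 15.5 CPM (edgeR adjusted p = 1.91e-07). Tnf had 3.25 ± 2.20 and 3.86 ± 1.42 CPM in wild type and control, and Il1b had 5.28 ± 4.67 and 12.3 ± 2.99 CPM. Neither cytokine gene passed. The 8 genes with too few counts included Il10, Ifnb1, Cxcl1, Ptgs2 and Nos2, named outside the rule for named genes. The list medians were 0.00 for adaptors and kinases, -0.25 for negative regulators, -0.36 for transcription factors and 0.10 for induced targets. With control 2 as the only control library Ctsb, Slc15a3, Pld3, Tab2, Tirap, Peli1, Nfkbia, Nfkbie, Nfkbiz, Rel, Nfkb1 and Irf1 were not called. Rab7b, Ly86, Unc93b1, Hsp90b1, Ctsl, Myd88, Atf3, Ccl3 and Ccl4 were called in control against wild type under each of 23 alternatives.

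None of the 88 tested genes of these 6 lists passed edgeR's test in repopulated against control microglia (0.568% of all genes did), where 26 had an unadjusted p under 0.05 (18.5% of all genes had). There limma-voom called 3, beside 59 higher and 46 lower of all 12505 genes. DESeq2 called 10, beside 329 higher and 369 lower of all 12505 genes. The nearest in edgeR were Ctsl (log2 fold change -0.67, edgeR adjusted p = 0.0517), Ccl3 (-0.93, 0.0581) and Atf3 (-0.67, 0.0662). Against wild type, repopulated microglia had more Rab7b (log2 fold change 5.01, SE 0.43), Ctsl (0.91, SE 0.13), Ctsb (1.17, SE 0.19), Pld3 (1.22, SE 0.23), Atf3 (0.91, SE 0.15), Ccl3 (3.08, SE 0.20) and Ccl4 (2.15, SE 0.19), with edgeR adjusted p between 2.05e-07 and 0.00530. No gene of the 6 lists fell by edgeR in that comparison, where 98 of all 12505 genes did. In that direction 3 of the 88 had an unadjusted p under 0.05 (14 in either direction, against 15.1% of all genes). DESeq2 called 2 of the 88 lower, beside 207 of all 12505 genes. Myd88 (log2 fold change -0.27, edgeR adjusted p = 0.486) and Unc93b1 (-0.25, 0.659) did not pass against wild type.

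**Figure D5:**
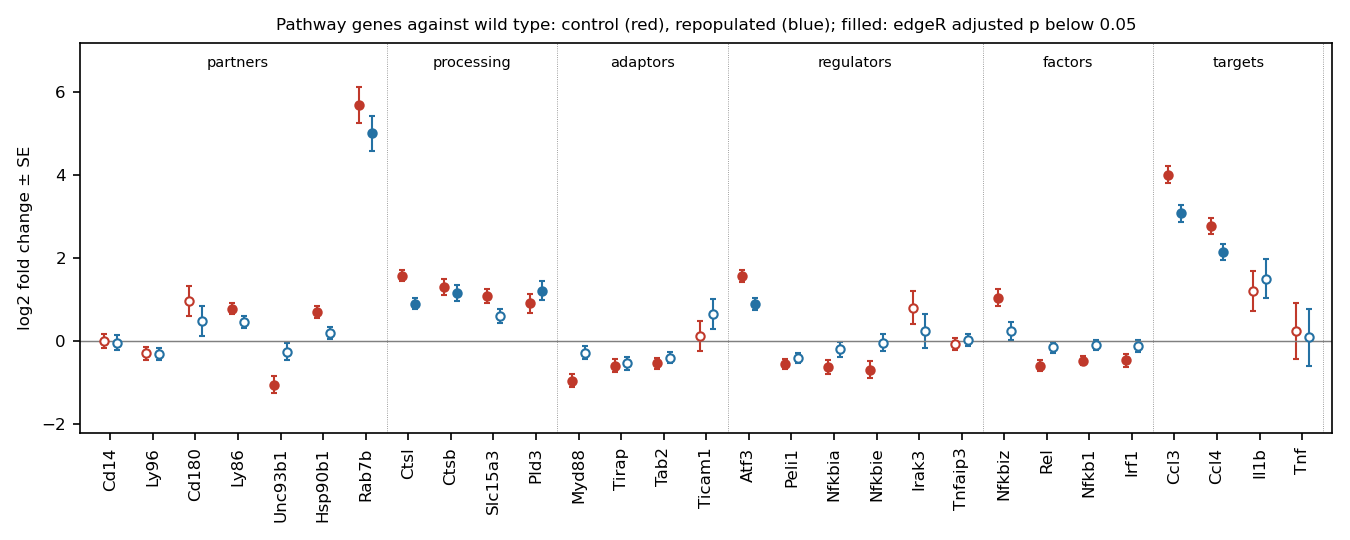
Log2 fold change and SE against wild type of pathway genes in control (red) and repopulated (blue) microglia, grouped by role, with filled points for an edgeR adjusted p under 0.05. Ccl3, Ccl4, Rab7b, Ctsl, Ctsb, Pld3 and Atf3 are filled in both groups, and Myd88 and Unc93b1 in control alone.

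Correlations of log2 CPM over the 10 libraries are given as descriptions, since the libraries share groups and processing. Tlr1 and Tlr2 varied together (r = 0.80), and Tlr5 ran against Tlr2 (r = -0.72) and with Tlr4 (r = 0.72). Tlr13 ran with Tlr6 (r = 0.82), Tlr8 (r = 0.75) and Tlr7 (r = 0.75). Of all tested genes, those most like Tlr5 were Gm52632 (r = 0.97), Pomk (r = 0.96) and Mmp28 (r = 0.96). Those most like Tlr7 included Itga6 (r = 0.92) and Add3 (r = 0.91). These are the highest values picked from 12505 tested genes over 10 libraries. Even the scarce genes Tlr8 and Tlr9 reached 0.87 and 0.89 with their best match.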

How the data were processed

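RNA-seq of 10 sorted microglia libraries was read from 1 table. Its deposited estimated counts (expected counts) are unnormalised reads per gene, per the file headers, and 20.06% of the nonzero values were not whole (tolerance 0.001). Per the file headers the authors also deposited TPM and FPKM, both scaled for gene length and library size. HISAT, Bowtie2 and the build GRCm38.p6 are named in the submitters' processing notes. Which program quantified the genes, and with which version, is not given in the sources used here. Coordinates came from RefSeq GRCm38.p6, which 19721 genes matched.

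Counts were rounded and fitted in R 4.3.3 with edgeR 4.0.16 (DESeq2 1.42.0 and limma 3.58.1 in alternatives): filterByExpr, TMM factors, robust quasi-likelihood, 1 model of the 3 groups, Benjamini-Hochberg adjustment over 12505 genes, threshold 0.05. The code was tested on simulated data. No library pair agreed within sampling noise. TPM and FPKM entered no test, and fold changes used a prior count of 0.125. Groups came from the labels. The members, gene lists and tests were chosen with earlier results of these data known. The rule for named genes took the 10 receptors, up to 4 genes per list by smallest p, and 11 defining partners. Likeness was Pearson correlation of log2 CPM (prior count 2), for the 3 genes most like Tlr5 and Tlr7, of which 1 is not reported here. Alternatives changed normalisation, filter, prior count, tool, threshold, libraries, GC and length offsets, a replicate block and Y-linked status (50 CPM).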

Additional observations from a re-analysis of the deposited data

Results flagged for a closer look

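In wild-type microglia Tlr4 was at 99.57 CPM in library 3, well below the other wild-type libraries at 132.2 to 135.8 CPM, with 0.901 of the group's range lying in that gap, past Dixon's 95% limit for 4 samples. Wild-type 3 is the library that stood apart on the second principal component. Tlr5 was at 11.24 CPM in wild-type 1, against 5.706 to 6.126 CPM in the others, a gap of 0.924 of the range. The wild-type level of each receptor, of the surface share, the Tlr1 to Tlr6 ratio and the summed TPM was checked, 13 groups in all, and chance marks about 1 in 20 such groups.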

How the results depend on the processing

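The number of receptors called in control against wild type was 3, and it was 1 with the Y-linked term, 0 with control 2 as the only control library, 1 at a threshold of 0.01, and 1 to 4 when each library was left out in turn (1 without control 3). For repopulated against control it was 0, and 1 with DESeq2. For repopulated against wild type it was 0, and 0 to 1 with each library left out (1 without repopulated 3). With Tlr4 in neither class the surface share was 33.17% in wild type, 37.89% in control and 39.86% in repopulated libraries. On CPM per listed transcript length, added after seeing the data, it was 39.13% in control, and within 1 SD in the other groups. The cause of these changes was not tested. With a replicate block the count in control against wild type was 2, Tlr1 being lost (log2 fold change 0.50, edgeR adjusted p = 0.0514), and calls over all genes went from 2265 to 1464. Correlations between same-numbered libraries were -0.105 to 0.071, and between differently numbered ones -0.109 to 0.129. They show no sign of pairing by number, but deviations from means of 3 or 4 libraries could miss it, and a shared batch was not tested.

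Other calls with GC and length offsets were Tlr4 (-0.54, edgeR adjusted p = 0.0192) and Tlr6 (-0.55, 0.0288). Calls over all genes in repopulated against control were 71 and ranged from 0 (without repopulated 2) to 698 (DESeq2), and in the other comparisons from 1202 to 2910 and from 284 to 780. Signs that changed belong to differences that passed no test, except that of Pld3. In log2 fold change for control against wild type, Tlr3 became 0.0187 with DESeq2 factors, 0.0032 with no filter, 0.0502 with the block, 0.0068 with the Y-linked term, 0.15 with control 2 alone and 0.0186 with DESeq2. Tlr7 became -0.0731 with GC and length offsets, with or without the block, and -0.0025 with control 2 alone. Tlr9 became 0.11 with offsets and block and 0.14 with the Y-linked term. Pld3 became -0.0559 with control 2 alone. In repopulated against control, control 2 alone gave Tlr2 0.0801, Tlr8 0.94 and Tlr13 0.0344, and the Y-linked term gave Tlr8 0.34. Offsets without and with the block gave Tlr4 0.26 and 0.26, and Tlr3 0.0128 and 0.0125. Leaving out each library in turn gave, in control against wild type, Tlr3 -0.0635 to 0.0465, Tlr8 -0.63 to 0.30 and Tlr13 -0.17 to 0.0201. In repopulated against control it gave Tlr4 -0.14 to 0.0462, Tlr6 -0.23 to 0.16, Tlr8 -0.98 to 0.0548 and Tlr9 -0.52 to 0.24, and against wild type Tlr1 -0.0328 to 0.23. The depth limits Tlr5, Tlr8 and Tlr9 most.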
